A study of Arabidopsis thaliana x Arabidopsis arenosa and Arabidopsis suecica with 6 samples.

Results

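The libraries described here are the replicate 2 columns of 4 F1 crosses of Arabidopsis allotetraploids. They make up 4 of the 16 leaf mRNA libraries of the series, and they were compared with the 8 libraries in the replicate 1 and replicate 3 columns of the same crosses. All plants carried chromosome sets of both A. thaliana (T) and A. arenosa (A). TTTA and TATT were crosses of AlloF8, an F8 resynthesized allotetraploid, with A. thaliana and held 3 T genomes to 1 A genome (class T3A1), whereas AATA and TAAA were crosses of AlloF8 with A. arenosa and held 1 T genome to 3 A genomes (class T1A3). The letter order gives the order in which the labels name the parents, with A. thaliana or A. arenosa first in TTTA and AATA and AlloF8 first in TATT and TAAA. Mature rosette leaves had been collected before bolting from plants 6 to 7 weeks old, grown with 16 h of light at 22 °C and 8 h of dark at 20 °C. No treatment is named for any of the 6 samples, the hour of harvest is not stated, and nothing states what the replicate number stands for.

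Each library gave, for every transcript, RPKM (reads per kilobase of transcript, scaled to library size) for the T and the A homoeolog, the copies of a gene that descend from the 2 parental species. Total expression is T + A, and the T share is T as a percent of T + A. Nothing states that the replicates were separate plants, so the p-values below measure only the spread between these libraries. Libraries with the same number also deviated together across crosses: the difference of replicate 3 from replicate 1 correlated between crosses with r from 0.13 to 0.50 over 12175 genes, and the 18S ribosomal RNA gene AT3G41768 was at 352 to 1002 RPKM in all replicate 1 libraries. The fit treats the 4 replicate 2 libraries as independent, which these values do not show, and what the number stands for and the state of the leaves cannot be told apart. Replicate 2 was singled out after it was known to stand apart in these data, and the p-values do not allow for that choice. Read depth is unknown because the deposited values are normalized. Summed total RPKM was 702957 to 767019 in replicate 2 and 723463 to 781415 in the other 8 libraries. No pair of libraries held identical values in most transcripts.

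Leaves balance growth against defence. In the salicylic acid (SA) branch of plant immunity, the transcription factors SARD1 and CBP60G switch on the synthesis enzyme ICS1, SA is sensed by the NPR proteins, and pathogenesis-related genes such as PR1 and PR5 are switched on downstream. The jasmonate branch, which answers wounding and chewing insects, is often held down when SA is high, and photosynthesis genes of a leaf commonly fall when immunity is active. Leaf transcripts also follow the hour of the day, light, temperature and the supply of iron and other nutrients.

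Replicate 2 held a leaf state with high SA defence transcripts and low photosynthesis, chlorophyll and cold-response transcripts. Medians of the SA target, photosynthesis, chlorophyll synthesis and cold gene lists had this direction in each of the 4 crosses, in unequal size. Some log2 medians were small: -0.19 for the Calvin cycle and -0.01 for photorespiration in TTTA, and -0.10 for the cold list in TATT. Of 13435 genes tested with cross as a block, 2543 (18.9%) were higher and 2046 (15.2%) were lower in replicate 2 (34.2% in all; limma, adjusted p under 0.05). With libraries rescaled to 1 median, 2178 were higher and 2599 lower. The median difference over all genes was 0.03 on the log2 scale, with 748 of the higher genes up by 1 or more and 367 of the lower genes down by 1 or more. In a fit of the same libraries by replicate number, replicate 2 differed from replicate 1 in 3813 genes (28.4%) and from replicate 3 in 3043 genes (22.6%). Replicate 3 differed from replicate 1 in 10 genes (0.0744%; 702 at an unadjusted p under 0.05), among them AT2G01021, annotated as an uncharacterized protein, and AT3G41768. When each cross was reduced to 1 difference, leaving 4 values per gene, no gene was called (smallest limma adjusted p = 0.0570), with 4903 genes at an unadjusted p under 0.05. That fit ends every call made over the 4 crosses for single genes and lists, in total expression and in the ratio of T to A. It was not made within crosses or for the class difference. In total expression 4383 of the 4589 called genes were among those 4903 of 13435 tested, an overlap within the same libraries. None of the 24 genes named below by rule for total expression was among them. Their unadjusted limma p in that fit ran from 0.0581 (AT5G48900) to 0.775 (AT3G28220).

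The size of the difference varied between crosses. With the lone replicate 2 library of a cross taken to vary like the other libraries, limma called 915 genes higher (6.88%) and 422 lower (3.17%) in TTTA, 10.0% in all. It called 2428 (18.2%) and 1542 (11.6%) in TATT, 29.8% in all, 1346 (10.1%) and 1242 (9.31%) in AATA, 19.4% in all, and 968 (7.35%) and 1011 (7.68%) in TAAA, 15.0% in all. Of all genes, 144 were called higher and 102 lower in every one of the 4 crosses. The genes called higher by 1 or more had median differences of 1.23 in TTTA, 2.34 in TATT, 1.25 in AATA and 0.96 in TAAA, and those called lower by 1 or more had medians of -1.02, -1.63, -1.37 and -1.31. Among the 12175 genes with a value in all 12 libraries, replicate 2 lay above both other libraries of its cross in all 4 crosses for 1840 (15.1%) and below both for 1475 (12.1%). Without TATT replicate 2 the calls fell to 1500 higher and 1250 lower.

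The SA target genes had the highest median of all lists. Of 20 tested, 18 were higher and 0 lower, with a median of 2.04 against 0.03 over all genes. PR1, a secreted antimicrobial protein and the standard marker of the SA response, stood at 3449.8, 4378, 4573 and 4443 RPKM in replicate 2, given first for TTTA and TATT and then for AATA and TAAA, the order used throughout. In the other 8 libraries it ran from 47.6 to 2959 RPKM with a median of 525. Replicate 2 was above every other library, and the highest of the others were replicates 1 and 3 of TAAA, at 2959 and 2097 RPKM. The log2 difference of PR1 was 3.19 ± 0.62 (SE; limma adjusted p = 0.00389), from 5.54 in TATT to 0.83 in TAAA. PR5, a thaumatin-like protein, stood at 1374, 1865, 398 and 580.1 RPKM against 69.5 to 432 (median 194), so that its AATA value lay inside the range of the other crosses while all 4 values were above their own cross. BGL2 (PR2), a beta-glucanase that attacks fungal walls, was at 1074, 1875, 657 and 599 RPKM against 80.3 to 517, and these groups did not overlap. PRB1, a basic relative of PR1, differed by 3.03 ± 0.60 and PCR3, of the plant cadmium resistance family, by 2.89 ± 0.40 (SE; adjusted p = 0.00410 and 0.000999). PCR1 and PCR2 differed by 2.29 and 2.60, but they are close copies of each other and their reads may have been shared. WRKY18 (1.00) and WRKY62 (0.63), both transcription factors, were the tested members that did not pass.

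Of 8 tested genes of SA synthesis and transport, 5 were higher and 1 was lower (median 1.49). SARD1 stood at 110.4, 176, 94.0 and 162 RPKM in replicate 2, against 4.99 to 75.2 RPKM (median 20.7) in the other libraries. CBP60G, its partner, was at 91.5, 138, 66.1 and 148 RPKM against 4.91 to 61.9 (median 17.6). For both factors every replicate 2 value was above every other value, and the differences were 2.74 ± 0.46 and 2.69 ± 0.44 (SE; adjusted p = 0.00197 and 0.00189). ICS1, the isochorismate synthase of the main SA route, stood at 28.3, 60.3, 35.0 and 98.0 RPKM against 4.58 to 47.2 (median 12.9). Its values were above both other libraries within each cross but overlapped between crosses, and it differed by 1.78 ± 0.31. EDS5, a transporter of the SA pathway, and PBS3, which conjugates isochorismate to glutamate, differed by 1.57 and 1.42. PAL1 (-0.10) and PAL2 (-0.23), enzymes of the other SA route, did not pass, and WRKY28 was lower (-0.86).

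In the EDS1 hub and helper receptors, 8 of 12 were higher and 1 lower (median 0.88). EDS1, a lipase-like hub of immune receptor signalling, stood at 37.9, 71.8, 57.4 and 60.4 RPKM against 6.83 to 38.8 (median 15.0), and its partner PAD4 at 72.5, 124, 83.0 and 91.2 RPKM against 13.5 to 66.3. Of these, only the TTTA value of EDS1 fell inside the range of the other libraries. Among genes of SA perception 6 of 9 were higher and 1 lower (median 0.62), including the receptors NPR1 (0.69), NPR3 (0.71) and NPR4 (1.16), with the factor TGA7 lower (-0.72). The SA-inactivating oxygenases DMR6 (1.03) and DLO1 (2.06) were higher among 3 tested genes of SA conjugation and breakdown, of which 2 were called. In the pipecolate pathway of systemic resistance 5 of 7 were higher and 0 lower (median 1.40). Its key enzymes ALD1 and FMO1 had values in too few libraries to be tested.

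**Figure D1:**
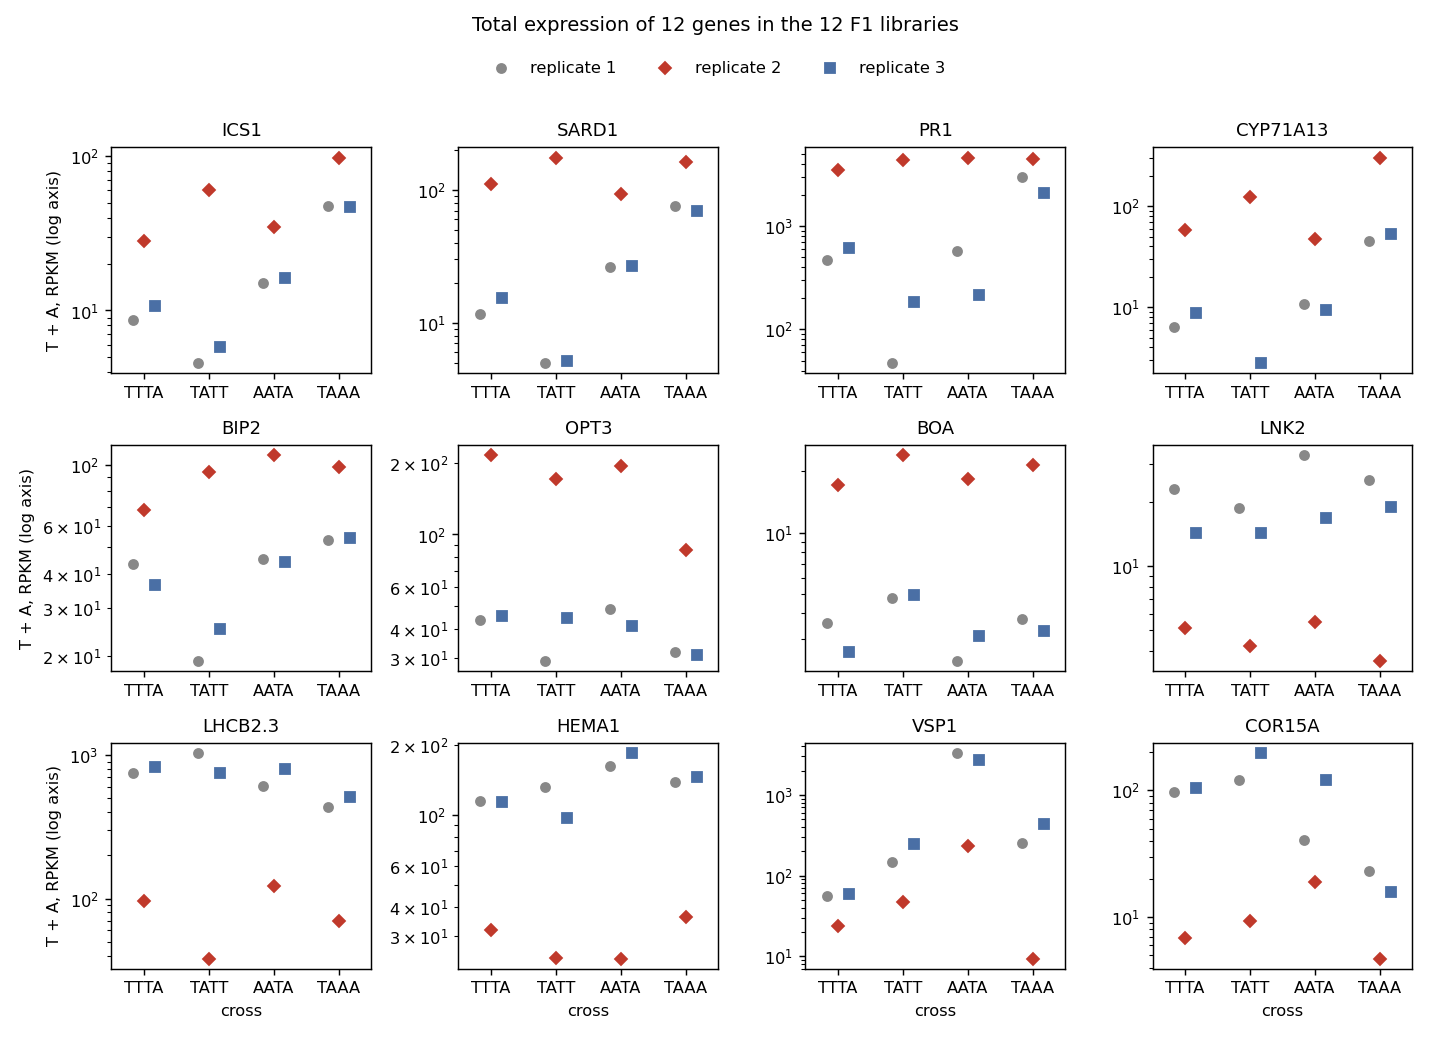
Total expression (T + A, RPKM, log axis) of 12 genes in the 12 F1 libraries, with crosses along the horizontal axis and replicate 2 marked apart from replicates 1 and 3. ICS1, SARD1, PR1, CYP71A13, BIP2, OPT3 and BOA lie higher in replicate 2 within each cross, and LNK2, LHCB2.3, HEMA1, VSP1 and COR15A lie lower; TATT replicate 1 has no CYP71A13 value.

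Promoters of a few genes that led the difference are printed so that known motifs of immune transcription factors can be seen in place. These genes and motifs were picked by hand and do not stand for all leading genes. Each is the 250 bases before the annotated gene start, 5′ to 3′ on the gene's own strand, from the RefSeq copy of TAIR10.1. For SARD1 (chr1:27749249-27749498, minus strand), capitals mark TTGAC, the core of the W-box bound by WRKY factors, or its reverse complement GTCAA. For NAC090 (chr5:7410103-7410352, minus strand) and NAC061 (chr3:16024520-16024769, minus strand), a pair of related transcription factors, capitals mark CGCGTT, the CAMTA factor site, read here on the opposite strand.
SARD1: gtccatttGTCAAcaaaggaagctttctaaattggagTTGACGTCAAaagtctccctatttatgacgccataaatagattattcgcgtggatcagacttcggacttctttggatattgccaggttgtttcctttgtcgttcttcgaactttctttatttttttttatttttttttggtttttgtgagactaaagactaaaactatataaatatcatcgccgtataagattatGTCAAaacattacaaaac
NAC090: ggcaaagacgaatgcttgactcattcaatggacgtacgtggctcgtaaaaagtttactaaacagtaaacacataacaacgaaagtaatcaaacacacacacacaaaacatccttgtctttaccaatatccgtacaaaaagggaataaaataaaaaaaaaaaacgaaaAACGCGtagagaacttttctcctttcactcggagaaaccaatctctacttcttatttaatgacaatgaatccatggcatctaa
NAC061: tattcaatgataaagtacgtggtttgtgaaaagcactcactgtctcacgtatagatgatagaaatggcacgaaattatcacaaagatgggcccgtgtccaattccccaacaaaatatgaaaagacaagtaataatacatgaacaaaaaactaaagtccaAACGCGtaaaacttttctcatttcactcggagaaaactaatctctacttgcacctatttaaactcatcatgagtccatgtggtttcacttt
SARD1 holds 4 W-box cores, of which the pair at 213 to 204 bases lies head to head. That pair overlaps matches to TGACG, the site of TGA factors. NAC090 and NAC061 share the run tttcactcggagaaa, 15 bases long, which begins 61 bases before the start of NAC090 and 71 bases before that of NAC061. NAC090 also holds 1 W-box core, left in lower case, and NAC061 holds none.

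Across promoters of this length, searched on both strands, the W-box core was found in 44.9% of 27443 protein-coding genes and 44.6% of the genes tested. It was present in 53.9% of genes called higher and in 463 of 741 (62.5%) of those higher by 1 or more, against 39.7% of genes called lower and 38.7% of those lower by 1 or more. The CAMTA site was found in 2.59% of all promoters, in 4.59% of genes higher by 1 or more and in 0.824% of genes lower by 1 or more. Among 11 promoters of the genes named by rule as higher, it was found in 2, the printed NAC090 and NAC061. The W-box core was found in 6 of those 11. TGACG, which can overlap the W-box core, was found in 18.6% of all promoters and in 25.1% of genes higher by 1 or more. The SA target list lay close to or below the share of all promoters, with the W-box core in 11 of 23 (47.8%) and TGACG in 3 of 23 (13.0%). GCCGCC, the box of ethylene response factors, was found in 1.87% and 1.75%. These shares describe letters in a window and show no binding.

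NAC061 stood at 106, 170.2, 77.9 and 150.0 RPKM in replicate 2 and at 3.43 to 56.4 RPKM (median 16.5) in the other libraries. Its groups did not overlap, and the difference was 3.10 ± 0.52 (SE; adjusted p = 0.00203). NAC090 stood at 114, 133, 23.3 and 33.4 RPKM against 3.44 to 24.8 (median 9.07), with the T3A1 values far above the rest and the AATA value inside the range of the others. SAG21, a late embryogenesis abundant protein induced in ageing and stressed leaves, was at 813, 1387, 721 and 959 RPKM against 76.4 to 302, with no overlap (2.82 ± 0.31, adjusted p = 0.000387). AT2G18690, which the annotation leaves uncharacterized, differed by 2.87, the lectin family gene AT5G18470 by 2.73, the uncharacterized AT3G15518 by 2.75 and the RNA gene AT3G15536 by 2.73. The annotation describes an antisense transcript over AT3G15518, and without strand in the counts such reads cannot be told apart.

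Of 25 genes of pattern-triggered immunity, which starts from receptors for microbial patterns, 15 were higher and 0 lower (median 0.79). LYK5, the chitin receptor, stood at 49.2, 69.8, 47.8 and 102 RPKM against 5.17 to 28.5 (median 11.2), without overlap. The kinases MPK3 and MKK4 differed by 1.32 and 1.42 and the co-receptor SOBIR1 by 1.67, whereas the flagellin receptor FLS2 (0.14) and the kinase BIK1 (0.13) did not pass. Among genes annotated as disease resistance proteins, most of them intracellular immune receptors, 46 of 74 were higher and 0 lower (median 0.66); without TATT replicate 2, 23 were called higher. Genes of this kind often sit in clusters of similar copies, so single members are uncertain. Of 31 WRKY factors 18 were higher and 2 lower (median 0.85). WRKY70, which promotes SA responses over jasmonate responses, was at 380.1, 238, 144 and 181 RPKM against 14.8 to 121, with no overlap.

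Of 8 genes of camalexin, an antimicrobial indole compound, 6 were higher and 0 lower (median 1.79). CYP71A13, which makes the indole-3-acetonitrile precursor, stood at 57.4, 123, 47.2 and 302 RPKM against 2.81 to 52.4 (median 9.27), with no value in TATT replicate 1. PAD3, the enzyme of the last step, was at 49.6, 148, 229.6 and 785 RPKM against 5.61 to 318 (median 40.2). The AATA value of CYP71A13 and all PAD3 values but that of TAAA lay inside the range of the others, and TAAA replicate 2 was the highest library for both. The differences were 3.09 ± 0.37 and 2.40 ± 0.39 (SE; adjusted p = 0.000780 and 0.00215). Of 22 glucosinolate synthesis genes 5 were higher and 6 lower (median -0.49), against 18.9% and 15.2% of all tested genes. The direction was mixed, with medians of 0.32, -0.16, -1.02 and -0.61 in the 4 crosses. The higher members included MYB51 (2.13), the regulator of the indole branch, and its enzyme CYP83B1 (1.45), and the lower members included MYB28 (-0.88), the regulator of the branch from methionine, with its enzymes MAM1 (-1.36) and CYP79F1 (-1.07). Among 10 genes of glucosinolate breakdown 2 were higher and 6 lower (median -0.67), the higher ones being the nitrile specifier NSP5 (1.07) and the indole glucosinolate hydrolase PEN2 (0.83).

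Of 16 jasmonate and wound target genes 8 were lower and 1 was higher (median -0.99). VSP1, a vegetative storage protein and marker of the jasmonate response, stood at 23.5, 47.1, 231 and 9.36 RPKM against 56.4 to 3271 (median 252). Replicate 2 was below both other libraries in each cross, but the crosses differed so much that the AATA value lay inside the range of the others. The difference was -3.02 ± 0.48 (SE; adjusted p = 0.00165). Its relative VSP2 had 4.11, 9.13 and 39.7 RPKM in the first 3 crosses, no value in TAAA replicate 2, and 10.1 to 1198 RPKM elsewhere. The basic defensin PDF1.2c (0.98) was the member called higher. Genes of jasmonate synthesis (13 tested, 1 higher, 3 lower, median -0.21) and of jasmonate signalling and breakdown (21 tested, 1 higher, 3 lower, median -0.07) had few members called over the 4 crosses. Within crosses the signalling list had 9 members called lower and 0 higher in AATA (median -0.97) and 12 called higher and 0 lower in TAAA (median 0.88), each resting on 1 replicate 2 library. The difference between those crosses was not tested.

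Photosynthesis transcripts were lower. Of 42 genes of the photosystems and light-harvesting complexes 0 were higher and 38 lower (median -0.76). LHCB2.3, a chlorophyll-binding protein of the main antenna, stood at 96.1, 38.2, 123 and 70.2 RPKM in replicate 2 and at 434 to 1028 RPKM (median 751) in the other libraries. No value overlapped, and the difference was -3.19 ± 0.27 (SE; adjusted p = 0.000102), from -2.50 in AATA to -4.50 in TATT. LHCB2.1 (-1.99), LHCB2.2 (-1.87) and LHCB1.1 (-1.49) were lower too, but the LHCB1 and LHCB2 genes are near-identical copies among which reads may be shared. Subunits outside the antenna were lower by smaller amounts, such as PSAN (-1.40), PSAD-2 (-0.93) and PSBO1 (-0.67). LHCA2, LHCB4.3, PSBR and PSAE-2 did not pass, with differences from -0.49 to -0.17. Without the cross TATT 25 were called lower.

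**Figure D2:**
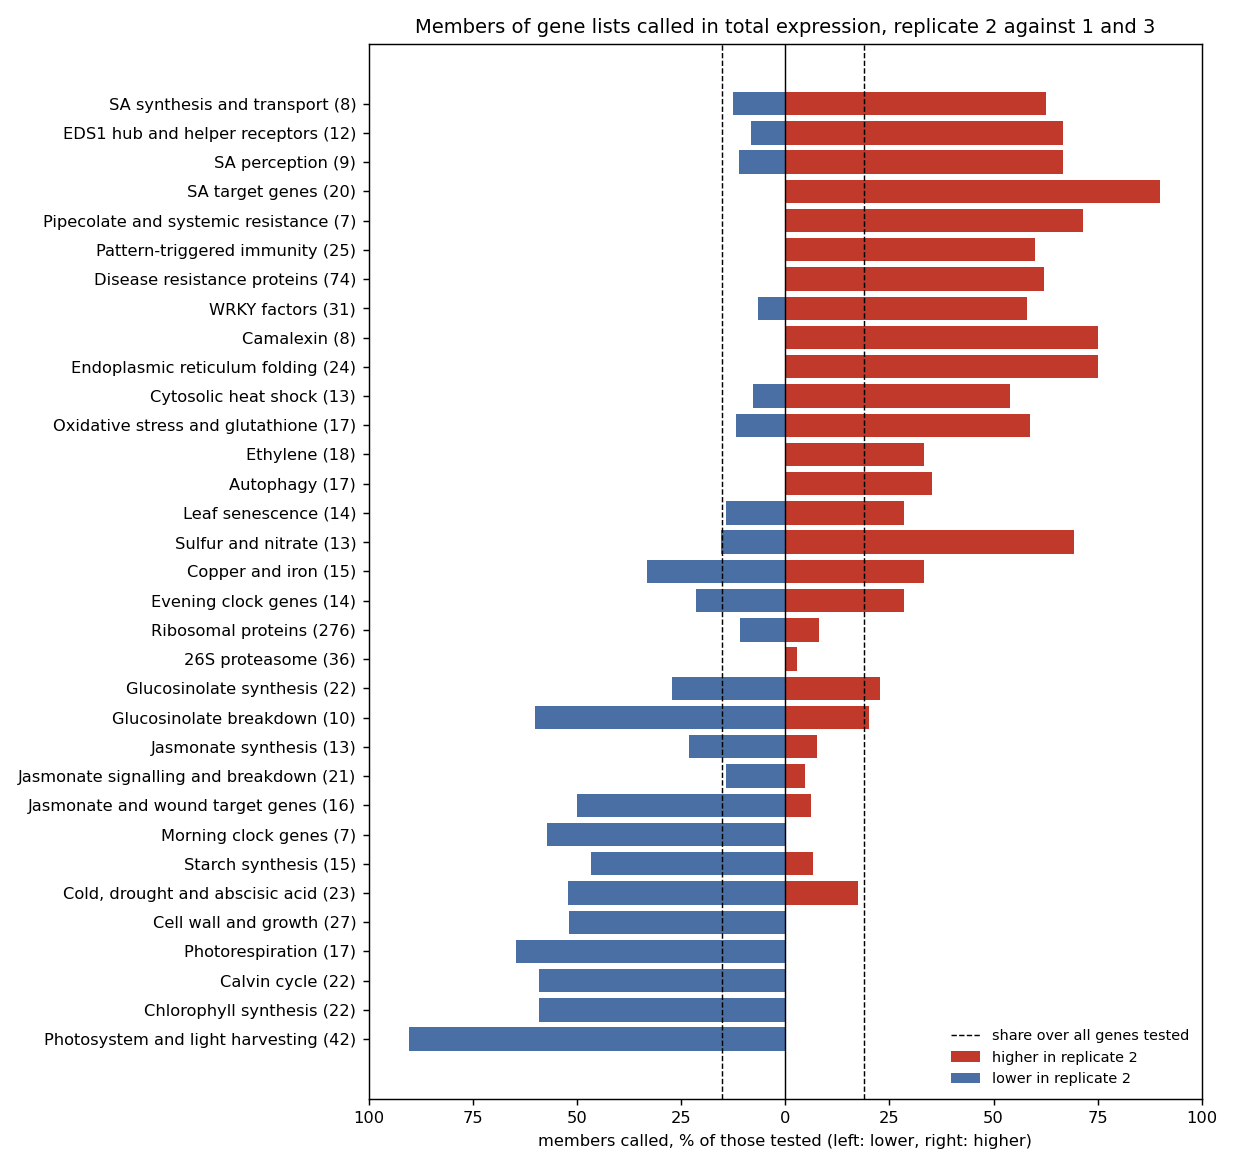
Percent of the tested members of 33 gene lists called higher (one side) or lower (other side) in replicate 2 by limma, with dashed lines at 18.9% and 15.2%, the shares among all 13435 tested genes. SA, immune and endoplasmic reticulum lists extend to the higher side and photosynthesis, chlorophyll and cell wall lists to the lower side.

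In the Calvin cycle 13 of 22 genes were lower and 0 higher (median -0.55; 8 lower without the cross TATT and 8 without TAAA). RCA, the activase of Rubisco, stood at 781, 508, 469 and 329 RPKM against 973 to 1298 (median 1190.0), without overlap (-1.20 ± 0.16, adjusted p = 0.000892). Photorespiration had 11 of 17 lower and 0 higher (median -0.44), led by CAT2 (AT4G35090), the peroxisomal catalase, at 18.9, 13.6, 15.8 and 10.7 RPKM against 48.0 to 87.3. Chlorophyll synthesis had 13 of 22 lower and 0 higher (median -0.65). HEMA1, the first committed enzyme of the tetrapyrrole route, stood at 32.0, 24.1, 24.0 and 36.3 RPKM against 96.8 to 184 (median 135). GUN4, which activates magnesium chelatase, was at 35.1, 17.7, 32.3 and 17.4 RPKM against 71.6 to 117 (median 92.6). Both were below every other library, and the differences were -2.20 ± 0.15 and -1.86 ± 0.14 (SE, limma adjusted p = 9.25e-05 for each). Starch synthesis had 7 of 15 lower and 1 higher (median -0.35), whereas starch breakdown had 2 of 19 higher and 2 lower (median -0.01).

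Markers of leaf cell types were checked against the label of rosette leaf. All 7 mesophyll markers were measured, and all 7 were lower in replicate 2 (median -0.95), among them CA1, a carbonic anhydrase, at 163, 105, 185 and 119.7 RPKM against 276 to 497. The mesophyll list shares its members with the photosynthesis lists. None of the 5 phloem markers was called (median 0.01), and SUC2, the sucrose loader of companion cells, was at 196, 205, 275 and 244 RPKM against 141 to 293. Of 7 guard cell lineage markers 2 could be tested and FAMA was lower (-0.56). Only SCR of the 6 root markers could be tested (0.19, not called), and none of the flower or trichome markers could be. In bulk leaf RNA, fewer cells of a type and less RNA per cell cannot be told apart.

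Senescence transcripts showed no clear shift as a group. Of 14 leaf senescence genes 4 were higher and 2 lower (median 0.24), and of the 6 senescent leaf markers 2 were higher and 1 lower (median 0.17). These counts lay near the shares over all tested genes, 18.9% higher and 15.2% lower. The age-linked factor NAC029 (1.86) and the SA-linked oxidoreductase SAG13 (1.84) were higher. Of the genes of chlorophyll breakdown, PPH (0.01), SGR1 (0.32) and PAO were not called and NYC1 was lower (-0.74). Genes induced in the dark or by low sugar had 1 of 17 higher and 5 lower (median -0.35), and autophagy genes had 6 of 17 higher and 0 lower (median 0.35).

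Genes of protein folding in the endoplasmic reticulum were mostly higher: 18 of 24 were higher and 0 lower (median 0.75). BIP2, its main chaperone, stood at 68.5, 94.4, 108 and 98.3 RPKM against 19.3 to 54.2 (median 43.7), with no overlap (1.25 ± 0.18, adjusted p = 0.00123). BZIP60, a factor of the unfolded protein response, was at 205, 186, 65.6 and 117 RPKM against 29.0 to 76.9, with its AATA value inside that range. Cytosolic heat shock genes had 7 of 13 higher and 1 lower (median 0.63). Genes of the oxidative stress and glutathione list had 10 of 17 higher and 2 lower (median 0.49), 8 of the higher ones being glutathione transferases such as GSTF7 (2.01), and the lower ones CAT2 (AT4G35090) and DHAR1 (-1.05). Ethylene genes had 6 of 18 higher and 0 lower (median 0.34). The translation and proteolysis machinery showed no such shift: of 276 ribosomal protein genes 22 were higher and 30 lower (median -0.01), and of 36 proteasome genes 1 was higher and 0 lower (median 0.04).

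Nutrient genes moved in opposite directions within 1 list. Of 15 copper and iron genes 5 were higher and 5 lower (median 0.14). FER1, an iron storage ferritin that is high when iron is plentiful, stood at 20.9, 22.5, 14.1 and 35.2 RPKM against 53.3 to 406 (median 313). OPT3, a phloem iron transporter that is high when iron is short, stood at 216, 171, 196 and 85.6 RPKM against 29.3 to 48.6 (median 42.1). Both sets of values were apart in every cross, and the differences were -3.22 ± 0.37 and 2.02 ± 0.16 (SE, limma adjusted p = 0.000467 and 9.25e-05). The other ferritins FER3 (-1.60) and FER4 (-1.52) were lower, and the iron reductase FRO3 (1.82) and the regulator PYE (1.48) were higher. NEET, an iron-sulfur protein of plastids and mitochondria, was at 4.72, 2.68, 5.87 and 10.1 RPKM against 18.6 to 56.9. In the sulfur and nitrate list 9 of 13 were higher and 2 lower (median 0.68), with NIA2, a nitrate reductase, at 1.76, APR3, a sulfate-reducing enzyme, at 1.97, and the nitrate transporter NRT1.1 at -1.66. Phosphate starvation genes had 2 of 10 higher and 1 lower (median 0.08), near the 18.9% and 15.2% of all tested genes.

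Of 23 cold, drought and abscisic acid genes 12 were lower and 4 higher (median -0.62). RD29A, a classic cold and drought marker, stood at 37.2, 46.6, 47.3 and 68.6 RPKM against 163 to 399.7 (median 301), without overlap (-2.53 ± 0.22, adjusted p = 0.000131). COR15A, which protects plastid membranes from freezing, was at 6.80, 9.32, 19.1 and 4.72 RPKM against 15.9 to 196, and its AATA value overlapped the range of the other crosses. LTI30, a dehydrin outside the list, was lower by a similar size (-2.62). The 4 higher members were the factor DREB2A (0.70), the dehydrin RAB18 (0.51) and the phosphatases ABI1 (0.77) and HAB1 (0.46). The TRAF-like gene AT3G28220 had the most negative difference of the genes named by rule, at 11.7, 14.7, 6.62 and 2.14 RPKM against 41.1 to 214 (-3.79 ± 0.43). The remaining genes of that rule were PGL5, a 6-phosphogluconolactonase (-2.80), the lectin gene AT1G52000 (-2.59) and the pectin lyase-like gene AT5G48900 (-2.49).

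Clock genes differed one by one. Of 7 morning genes 4 were lower and 0 higher (median -0.54), and of 14 evening genes 4 were higher and 3 lower (median 0.06). The evening counts lay near the shares over all tested genes, 18.9% higher and 15.2% lower. BOA, an evening factor related to LUX, stood at 17.2, 24.0, 18.5 and 21.5 RPKM against 2.34 to 4.91 (median 3.45), with differences between 2.20 and 2.57 in the 4 crosses (2.39 ± 0.12, adjusted p = 9.80e-06). LNK2, a daytime coactivator, was at 5.15, 4.22, 5.50 and 3.61 RPKM against 14.2 to 33.0, with differences from -1.73 to -2.45 in the 4 crosses (adjusted p = 0.000281). Both were apart from every other library. Other evening genes ELF4 (1.31), LUX (0.89) and TOC1 (0.67) were higher, the daytime genes PRR7 (-0.96), PRR5 (-1.42) and GI (-0.77) were lower, and ZTL (-0.02) and ELF3 (-0.12) did not pass. CCA1, the central morning factor, was measured in 4 of the 8 other libraries and in 0 of the replicate 2 libraries. The part of the hour of harvest in these differences was not tested, because no label gives it.

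Of 27 cell wall and growth genes 14 were lower and 0 higher (median -0.63; 9 lower without the cross TATT), among them the cellulose synthases CESA1 (-1.07), CESA3 (-0.87) and CESA6 (-0.76) and the expansin EXPA1 (-1.14). Shade and growth regulators had 4 of 9 lower and 0 higher (median -0.48), led by ATHB2 (-1.47) and PIF4 (-1.32). Flavonoid genes were few: of 4 tested, 1 was higher and 2 were lower (median -0.21).

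Promoters of genes picked by hand from the lower and clock groups are shown for the light and clock motifs. Capitals mark CACGTG, the G-box bound by light and abscisic acid factors, in LHCB2.3 (chr3:10255656-10255905, plus strand) and COR15A (chr2:17712331-17712580, minus strand), and AAAATATCT, the evening element, read on the opposite strand in BOA (chr5:24003638-24003887, plus strand).
LHCB2.3: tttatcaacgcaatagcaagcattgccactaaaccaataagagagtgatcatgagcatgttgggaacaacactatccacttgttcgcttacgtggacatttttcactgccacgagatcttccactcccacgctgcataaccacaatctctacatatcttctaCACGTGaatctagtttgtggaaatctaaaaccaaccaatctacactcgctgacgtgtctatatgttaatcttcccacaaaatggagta
COR15A: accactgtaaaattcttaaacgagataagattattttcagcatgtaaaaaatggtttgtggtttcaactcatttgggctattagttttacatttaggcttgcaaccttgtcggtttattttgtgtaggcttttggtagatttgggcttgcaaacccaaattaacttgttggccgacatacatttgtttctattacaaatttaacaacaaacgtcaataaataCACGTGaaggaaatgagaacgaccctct
BOA: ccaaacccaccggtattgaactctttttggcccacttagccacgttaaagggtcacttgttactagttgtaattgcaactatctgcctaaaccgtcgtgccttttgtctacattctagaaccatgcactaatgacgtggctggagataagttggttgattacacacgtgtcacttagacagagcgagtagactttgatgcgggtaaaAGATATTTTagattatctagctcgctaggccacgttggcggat
The G-box lies 88 to 83 bases before the start in LHCB2.3 and 28 to 23 bases before it in COR15A, and BOA also holds 1, in lower case. The G-box was found in 6.49% of all 27443 promoters, 7.46% of genes tested, 9.82% of genes called lower, 6.10% of genes called higher and 21.4% of the 42 photosystem and light-harvesting genes. The evening element was found in 2.36% of all promoters and in 8 of 15 evening clock genes (53.3%).

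**Figure D3:**
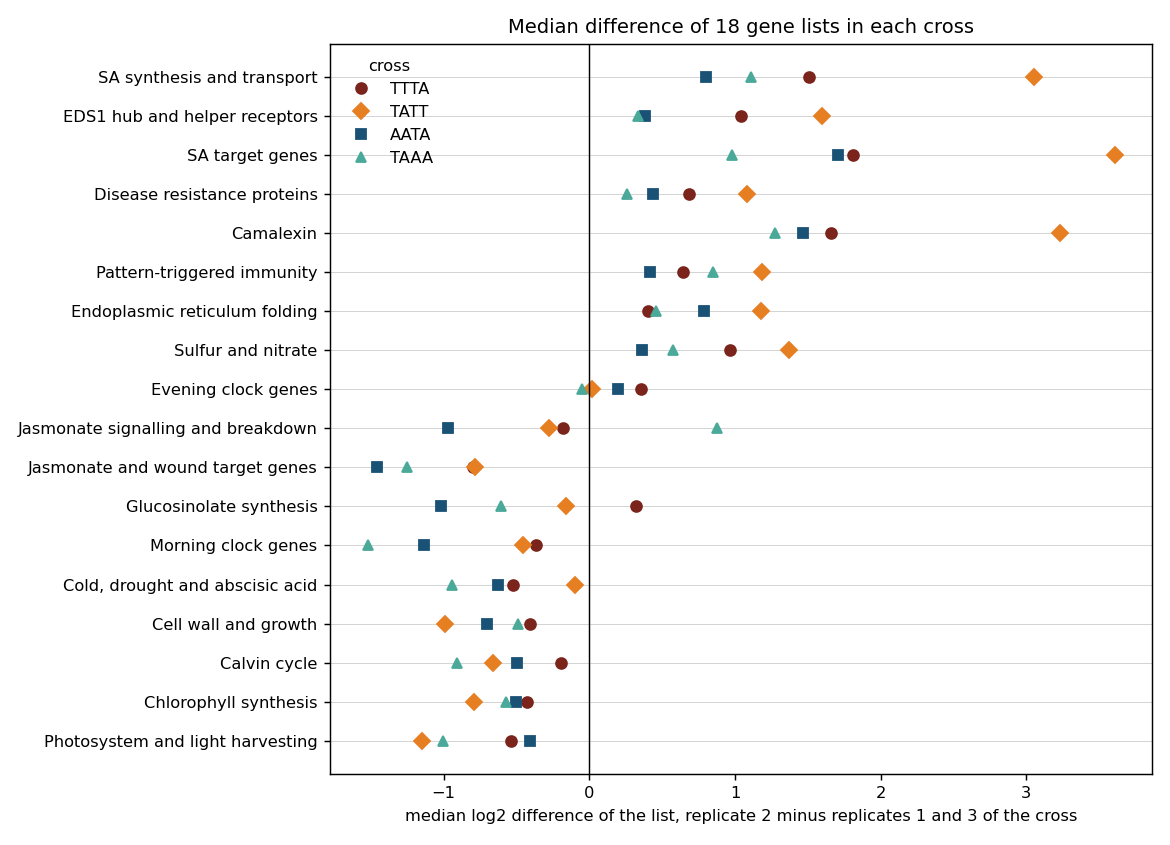
Median log2 difference of replicate 2 from replicates 1 and 3 over the tested members of 18 gene lists, with 1 point per cross. Most lists lie on the same side of 0 in all 4 crosses, and jasmonate signalling lies at -0.97 in AATA and 0.88 in TAAA.

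For some genes the difference was not the same in the T3A1 and T1A3 crosses. Each class holds few replicate 2 libraries, so dosage cannot be told apart from the state of single libraries. In the test of the difference between classes, 286 of 13431 genes (2.13%) were called, 257 (1.91%) with a higher value in T3A1 and 29 (0.216%) with a lower one. SZF1, a zinc finger protein of early stress responses, differed in replicate 2 by 4.30 in TTTA and 2.0 in TATT, but by -1.19 in AATA and -0.36 in TAAA. ERF11, an ethylene response factor, had 3.24, 2.31, -2.17 and 0.18 in the same order, and AT1G74450 had 2.94, 2.36, -1.82 and -0.57. NUDT21, a Nudix hydrolase, had 3.68, 0.36, -2.77 and -1.45, so that most of its positive value came from TTTA. The immune receptor-like gene AT1G72910 had 4.71, 2.64, 0.63 and -0.61. SARD1, CBP60G, NAC061 and NAC090 were higher in all 4 crosses and also differed between classes, by 2.50, 2.67, 3.10 and 3.72. In TAAA, replicates 1 and 3 held 75.2 and 69.5 RPKM of SARD1.

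In the opposite direction, PORA, a light-sensitive enzyme of chlorophyll synthesis, differed by -2.11 and -3.19 in TTTA and TATT and by 0.72 and 0.93 in AATA and TAAA. The dark-induced gene SEN1 had -2.54, -2.14, 1.02 and -0.34, and ERD5, the proline dehydrogenase of mitochondria, had -2.35, -2.71, -0.44 and 0.76. ERD9, a glutathione transferase, had -4.24, -3.96, -1.70 and -0.23, and AT5G55180 had -3.22, -2.92, -1.01 and 0.68. MBF1C, a coactivator of heat responses, was higher mainly in T1A3, with -0.36, 1.28, 2.86 and 3.00. The fit across classes gave PORA -3.48 ± 0.68 and MBF1C -2.47 ± 0.45 (SE; limma adjusted p = 0.0322 and 0.0254), each as T3A1 minus T1A3. Several class calls did not hold under other settings. With pairs listed as 0 kept as values, NUDT21, ERF11, PORA and SARD1 had adjusted p of 0.0824, 0.0568, 0.0571 and 0.0605, and with libraries rescaled to 1 median NUDT21, ERF11 and SARD1 had 0.0744, 0.0538 and 0.0527. Of the 16 genes whose class difference is given, counting VSP1, only AT1G74450, NAC090, ERD9, NAC061 and CBP60G kept the call whichever single library was left out.

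**Figure D4:**
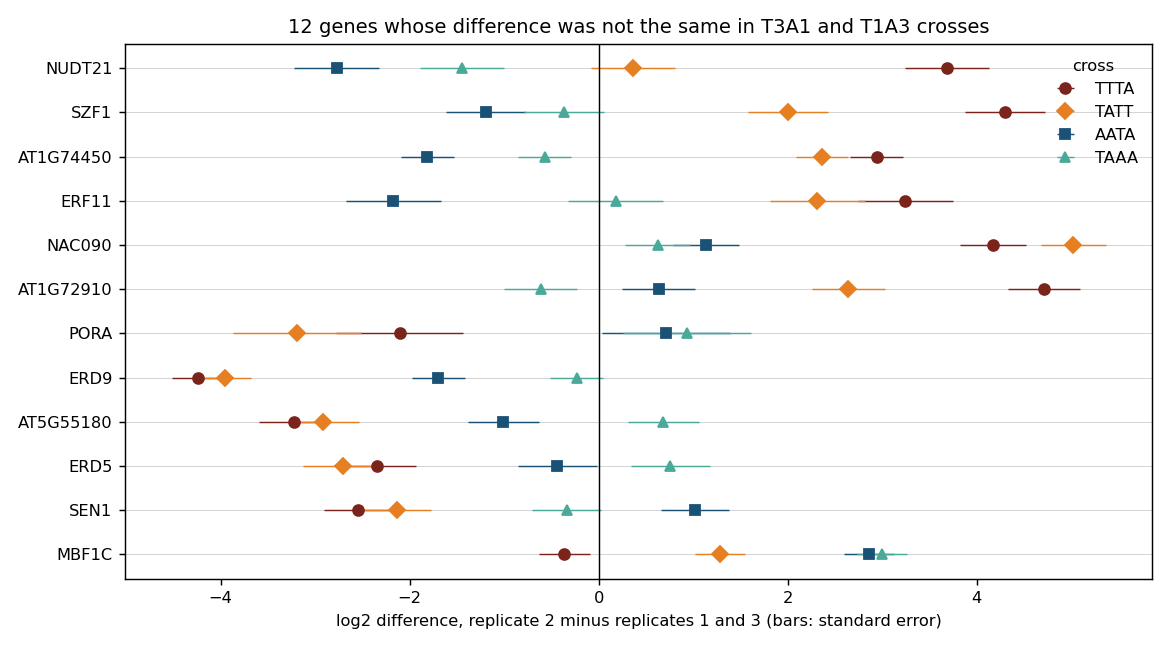
Log2 difference of replicate 2 from replicates 1 and 3 in each of the 4 crosses for the 12 genes with the largest class difference, 6 in each direction, with bars of 1 SE. ERF11 lies at 3.24 and 2.31 in TTTA and TATT and at -2.17 and 0.18 in AATA and TAAA, and PORA lies below 0 in TTTA and TATT and above 0 in the other crosses.

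T and A differed in the same direction for nearly all called genes. Their differences had the same sign in 4520 of the 4589 called genes (98.5%), against 78.5% of all tested genes. The called genes were chosen for a change in T + A, which by itself favours equal signs of its parts. The contrast of these percents therefore cannot show that the genomes moved together. The log2 difference of the T and of the A homoeolog was 2.64 and 2.82 for SARD1, 3.19 and 2.82 for PR1, -3.03 and -3.10 for LHCB2.3, and 2.15 and 2.35 for BOA. PRB1 was an exception, with -0.11 for T and 3.07 for A, so that its difference lay in the A homoeolog. Because T and A of a gene look like 2 parts of 1 deposited total, they are not independent measurements.

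The T share of whole libraries was lower in replicate 2, and a few abundant genes carried much of it. It was 71.3%, 70.5%, 20.3% and 20.2% in replicate 2 of the 4 crosses. Replicates 1 and 3 held 74.1% and 71.7% in TTTA, 74.4% and 71.2% in TATT, 22.8% and 23.8% in AATA, and 21.8% and 23.0% in TAAA. Replicate 2 was thus the lowest library of each cross. In TTTA and TATT replicate 3 lay close to it, and replicate 1 stood apart as the highest. The difference of replicate 2 from the mean of replicates 1 and 3 was -2.30 percentage points on average over the crosses (exact permutation test within crosses, two-sided, p = 0.0247). The smallest p this test allows is 0.0123. It permutes the numbers separately in each cross, so its p does not allow for deviations shared by libraries of the same number. The T share of the median gene differed by only -0.17 points (exact permutation p = 0.407). LHCB1.3 alone contributed -0.462 points, since its RPKM were lower and T made up 51.0% of them in replicate 2 against 70.7% elsewhere. AT2G01021 contributed -0.159 points and the 18S ribosomal RNA gene AT3G41768 -0.135 points. AT3G41768 set replicate 1 apart, not replicate 2, with 352 to 1002 RPKM in replicate 1 and 5838 to 10578 RPKM in replicates 2 and 3. Without AT2G01021, AT3G41768 and the organelle genes the difference was -1.91 points (exact permutation p = 0.0123), without photosystem and light-harvesting genes -1.39 points (p = 0.123), and without all of them -1.01 points (p = 0.0247). None of the 3 tested plastid genes and not the 1 tested mitochondrial gene were called in total expression.

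Per gene, the ratio of T to A was higher for 187 of 13259 genes (1.41%) and lower for 175 (1.32%) in replicate 2, and 191 of these 362 genes were also called in total expression. With 1 difference per cross no ratio was called (smallest limma adjusted p = 0.157; 2510 genes at an unadjusted p under 0.05). Leaving out single libraries moved the calls by over 1.5 times in at least 1 direction, to 37 and 20 without replicate 2 of TATT, 35 and 25 without that of AATA and 38 and 30 without that of TAAA. They were 68 and 44 without replicate 1 of TTTA, 69 and 49 without that of TATT and 133 and 108 without that of AATA, and 123 and 85 without replicate 3 of TATT and 124 and 97 without that of AATA. PHYD, a red-light photoreceptor, had T shares of 81.2%, 83.2%, 34.5% and 37.7% in replicate 2, against 48.0% to 63.9% in the other T3A1 libraries and 9.70% to 14.9% in the other T1A3 libraries. UGT84A2, a sinapate glucosyltransferase, had 91.1%, 90.3%, 74.3% and 83.3%, against 72.3% to 87.4% and 32.3% to 62.3%. CYP71B24, a cytochrome P450, had 60.6%, 56.7%, 14.9% and 9.70%, against 24.5% to 29.5% and 2.38% to 4.33%. All 3 were above both other libraries of their cross in each case, and the log2 ratio of PHYD and CYP71B24 was higher by 1.55 ± 0.17 and 1.64 ± 0.18 (SE; adjusted p = 0.00269 for each). Lower shares were seen for GSR1, a cytosolic glutamine synthetase, with 42.6%, 42.6%, 5.28% and 4.23% against 55.3% to 61.5% and 8.69% to 16.0%. LHCB1.3 had 81.9%, 79.4%, 21.3% and 18.1% against 83.4% to 90.9% and 36.7% to 52.5%. For both genes replicate 2 was the lowest library in every cross. Their log2 ratios differed from those of replicates 1 and 3 by -1.19 ± 0.18 and -1.21 ± 0.24 (SE, limma adjusted p = 0.00969 and 0.0263). The 8 largest ratio differences in each direction ran from 1.49 to 2.53, the last for the glucosyltransferase UGT85A3, and from -1.19 to -1.83, the last for the proton pump HA9. One ratio differed between the classes (0.00754%; 1413 at an unadjusted p under 0.05).

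**Figure D5:**
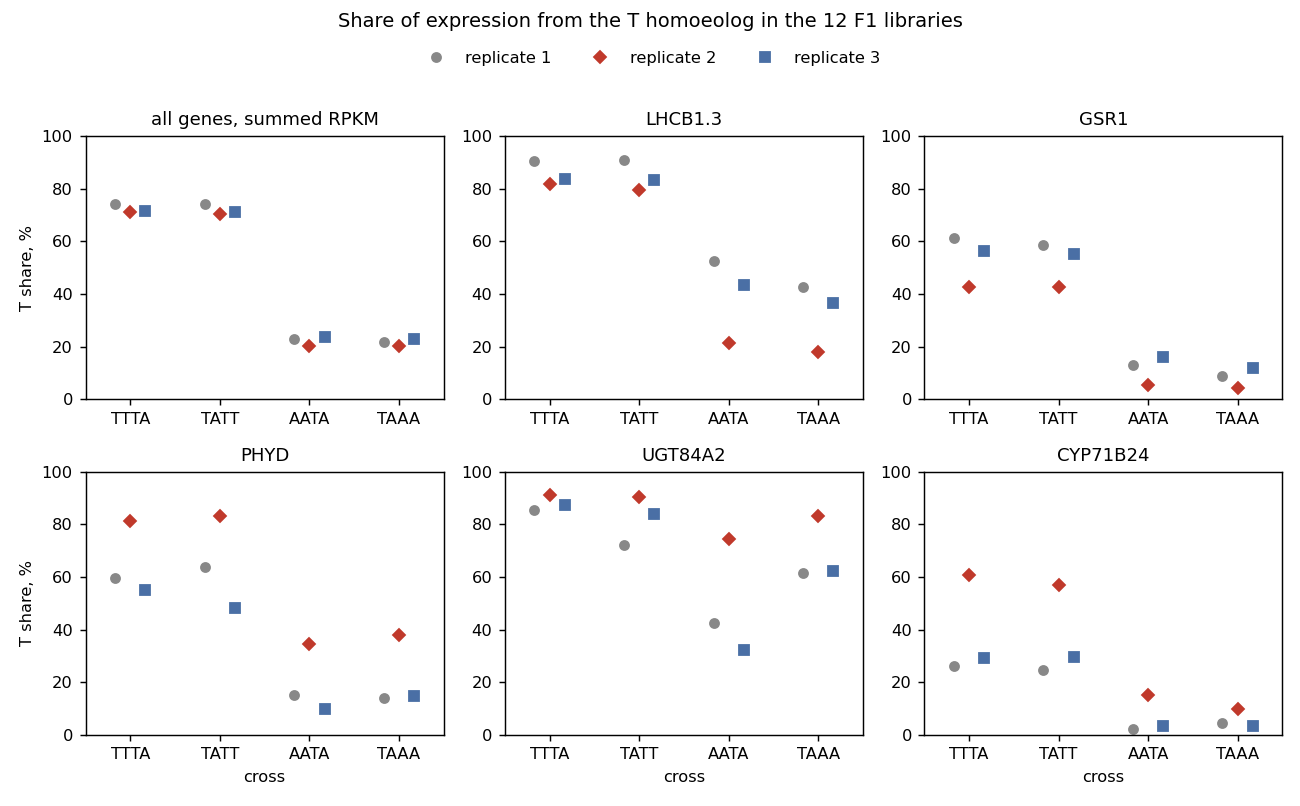
T share (percent of T + A) in the 12 F1 libraries for all genes together and for LHCB1.3, GSR1, PHYD, UGT84A2 and CYP71B24, with replicate 2 marked apart. All genes together run from 70.5% to 74.4% in TTTA and TATT and from 20.2% to 23.8% in AATA and TAAA, and replicate 2 is the lowest library of each cross there.

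AlloF8, which took no part in these tests, has a pair of libraries, and in it replicate 1, not replicate 2, had the higher defence transcripts. Of 670 genes higher by 1 or more in the F1 test and measured in AlloF8, 657 (98.1%) were above in AlloF8 replicate 1, with a median of 1.92 against 0.20 over all tested genes, of which 60.2% were above. Of 355 genes lower by 1 or more, 26 (7.32%) were above, with a median of -1.33. PR1 was at 2685 and 56.0 RPKM in AlloF8 replicates 1 and 2, SARD1 at 66.2 and 5.15, OPT3 at 201 and 25.1, LHCB2.3 at 20.6 and 958, and HEMA1 at 27.3 and 172. EXPA1 went against its F1 direction, with 29.4 and 16.2 RPKM. In natural A. suecica nearly all genes were above in replicate 1 (96.8%, median 0.57), with medians of 0.87 for the higher and 0.18 for the lower genes. There 583 of 589 higher genes (99.0%) and 231 of 343 lower genes (67.3%) were above in replicate 1, so both sets lay on the same side of 0. Against the median of all genes, the higher genes lay above and the lower genes below. The 18S ribosomal RNA gene AT3G41768 stood at 18696 and 5852 RPKM in AlloF8 replicates 1 and 2 and at 6937 and 45927 RPKM in those of A. suecica, and its part in these differences was not tested. These are single libraries against single libraries, with no test.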

How the data were processed

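Leaf mRNA of 6 samples was sequenced from poly(A) RNA with an Illumina mRNA-seq kit on a Genome Analyzer, per the labels' protocols. The authors deposited RPKM for the T and the A homoeolog of each transcript, with 3 replicate columns per F1 cross and 2 for AlloF8 and A. suecica. The build was TAIR 9, per the submitters' processing notes. How reads were aligned, counted and given to a homoeolog is not stated in the labels. No nonzero total was under 2 RPKM, and 99.992% of them had 6 or fewer significant digits, as if 1 total had been split into T and A. Steps of whole reads were not found, so depth is unknown and no interval for counting error is given.

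Pairs listed as 0 and 0 were missing. Each gene was its transcript with the highest mean total. Genes with values in at least 3 replicate 2 and 6 other libraries and a mean of at least 1 RPKM were tested (3793 of 17228 genes had too few values), for the ratio with that mean in each homoeolog. Values were log2(RPKM + 0.5), so fold changes of low genes are understated. Two-sided tests used limma 3.58.1 under R 4.3.3, with a trend of variance on mean and p adjusted over all genes by Benjamini-Hochberg at a threshold of 0.05. The fits were made with cross as a block, by cross, by dosage class and by replicate number, and were run on simulated data. The simulated libraries varied independently, so the simulation could not test for deviations shared by libraries of the same number. The T share of libraries was tested by exact permutation of replicate numbers within crosses.

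Genes named were the 12 largest called differences in each direction of total expression with replicate 2 outside both other libraries in all 4 crosses, 8 in each direction for the ratio, 6 for the class difference and 5 for replicate 3 against 1, plus members of 48 lists (751 of 759 entries matched). Genes with values on one side only were named by the 5 highest means. The members and lists were chosen with earlier results of these data known. Promoters came from RefSeq TAIR10.1, in which 99.1% of gene codes were found, and no coordinate of the deposited build was used. Alternatives were the pseudocount, the filters, treating 0 as a value, scaling to the median, no cross block, 1 difference per cross, each other replicate alone, a percent scale for the T share, and leaving out each library or cross. Leaving out AT2G01021 with the 18S ribosomal RNA and organelle genes, or photosystem genes, from the T share was added after seeing the data.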

Additional observations from a re-analysis of the deposited data

Results flagged for a closer look

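For 16 genes the difference of replicate 2 from the other libraries of its cross was itself different between the dosage classes by limma, with T3A1 minus T1A3 given on the log2 scale. It was higher in T3A1 for NUDT21 (4.14), SZF1 (3.93), AT1G74450 (3.85), ERF11 (3.77), NAC090 (3.72), AT1G72910 (3.67), NAC061 (3.10), VSP1 (2.74), CBP60G (2.67) and SARD1 (2.50). VSP1 was lower in replicate 2 of every cross and less so in T3A1. The class difference was negative for PORA (-3.48), ERD9 (-3.13), AT5G55180 (-2.91), ERD5 (-2.69), SEN1 (-2.68) and MBF1C (-2.47). Each value rests on 2 replicate 2 libraries per class, and 11 of the 16 calls were lost when at least 1 single library was left out.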

How the results depend on the processing

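Of 696 results for the 24 genes named in total expression under other settings, 662 stayed past the threshold, 34 did not and 0 changed sign. Counts moved more. Without the cross block, limma called 991 genes higher and 770 lower in total, and 0 and 1 for the ratio. Against replicate 1 alone the calls were 694 and 673 in total and 81 and 47 for the ratio, and against replicate 3 alone 650 and 427, and 2 and 0. With 1 difference per cross all 4 counts were 0. With 0 kept as a value, 107 ratios were higher and 86 lower and 33 genes differed between replicates 3 and 1. A pseudocount of 0.1 left 112 ratios lower, a mean of 5 RPKM left 124 higher, a percent scale gave 67 and 39, and scaling to the median gave 178 class differences. The T share of libraries differed by -0.17 points as the median over genes (exact permutation p = 0.407) and by -1.39 without photosystem genes (p = 0.123). Leaving out 1 library or 1 cross at a time, the total counts ran from 1322 to 2708 higher and 1017 to 2409 lower, the lowest without TATT, and the ratio counts from 5 to 181 and 1 to 175. Leaving out 1 library, calls within a cross ran from 1007 to 1360 in TTTA, 2547 to 4421 in TATT, 1410 to 3084 in AATA and 920 to 2364 in TAAA, class differences from 145 to 492, replicate 3 against 1 from 4 to 14, and the T share from -2.70 to -1.90 points, with p up to 0.111. With values required in all 12 libraries 3 camalexin genes were higher. No paired analysis was possible because the replicate number, by which a pairing would be made, is itself what was compared; the block used was the cross. The cause of these moves was not tested. Limits are that each cross has 1 replicate 2 library, that depth is unknown and that low genes are missing rather than 0.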

Other observations

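Some genes were listed above 0 on one side of the comparison only. There were 19 genes with a value in all 4 replicate 2 libraries and in none of the other 8, and 19 with a value in all 8 other libraries and in none of the 4. No fold is given, because no deposited total lies between 0 and 2 RPKM. The highest means of the first set were those of PP2-B8, a phloem lectin family gene (17.4 RPKM), RTL1 (8.38 RPKM), CLE14, a signalling peptide gene (8.28 RPKM), AT1G75000 (6.86 RPKM) and AT2G15830 (6.85 RPKM). PP2-B8 stood at 6.13, 15.9, 13.1 and 34.7 RPKM in the 4 crosses. The highest means of the second set were those of AT5G06980 (7.80 RPKM), CER1, an enzyme of leaf wax alkane synthesis (7.31 RPKM), IQD11 (5.96 RPKM), AT5G66580 (5.26 RPKM) and AT3G05900 (4.95 RPKM).

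The differences of replicate 2 from the other libraries correlated between crosses over the 12175 genes with 12 values, with Pearson r from 0.35 (TTTA with TAAA) to 0.69 (TTTA with TATT). The differences of replicate 3 from replicate 1 correlated with r from 0.13 to 0.50. These describe genes, which are not independent replicates, and the crosses share no library.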
